A study of Mus musculus with 4 samples.

Results

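The GATA factors and their FOG cofactors were examined in cardiac progenitor cells with and without Isl1, a LIM-homeodomain protein that marks second heart field progenitors. The group was the 8 genes Gata1, Gata2, Gata3, Gata4, Gata5, Gata6, Zfpm1 and Zfpm2, taken by symbol from a table of 31507 transcript entries for 20701 gene symbols, with the entry of the highest summed count kept for each symbol. Gata4 had 2 entries with the same counts and the other members had 1 entry each. All 8 members passed the filter on low counts.

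RNA-Seq had been done on E14 mouse embryonic stem cells that carry an Nkx2-5-EmGFP reporter in both groups and were differentiated, in both groups with Activin A, VEGF, BMP4, bFGF and FGF10, to the day 5 progenitor stage, where GFP-positive cells were sorted. The control group and the Isl1_KO group (Isl1-/-, made by CRISPR/Cas9 editing) each held 2 libraries, from 2 clones per genotype. The tests thus set the genotypes against the spread between clones, pooled over both groups. This spread went beyond counting error for 0 of the 8 members in control and for 7 in Isl1_KO. The same count was not made over all tested genes, so it cannot be read as particular to the members. The series' design text speaks of a knockdown, but the titles and genotypes give a knockout, and these were followed. The libraries held from 8821517 to 13186109 counts over 1 entry per gene, and the Isl1_KO libraries were the deeper ones. Isl1 was at 35.1 and 35.7 CPM (counts scaled to the effective library size) in control and at 1.31 and 2.08 CPM in Isl1_KO, a log2 fold change of -4.39 with SE 0.212 and an adjusted p, by the quasi-likelihood test of edgeR, of 0.00277, so the levels followed the labels. Nkx2-5, the gene behind the reporter used for sorting, was itself at 21.1 and 19.8 CPM in control and at 4.77 and 4.34 CPM in Isl1_KO.

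GATA factors are zinc finger proteins that bind the DNA word GATA. Gata4, Gata5 and Gata6 act in heart and endoderm, where they partner with Nkx2-5, Tbx5, Mef2c and Hand2, while Gata1 and Gata2 act in red cell and megakaryocyte development and in blood stem cells, and Gata3 in T cells and several epithelia. Zfpm1 and Zfpm2 encode FOG1 and FOG2, multi-zinc-finger proteins that do not bind DNA by sequence but dock on the amino-terminal finger of a GATA factor and bring in CtBP and the NuRD complex. FOG1 is the classical partner of Gata1 and FOG2 of Gata4 in the heart.

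Gata5 and Gata6 fell in Isl1_KO, and no other member passed the test. Gata5 was 26.2-fold lower and Gata6 was 2.02-fold lower. Gata1 was at 1.80-fold and Gata2 at 2.27-fold its control level without passing, Gata4 was at 0.710-fold, Zfpm2 at 0.452-fold and Zfpm1 at 0.985-fold. In these bulk libraries fewer cells of a type and less RNA per cell cannot be told apart. By the quasi-likelihood test of edgeR, 2 of the 8 members had an adjusted p under 0.05, both lower, against 2.45% of 12715 tested genes in either direction and 1.94% lower. In CPM the libraries of the groups did not overlap for 6 members, 4 lower and 2 higher, but this was also so for 58.1% of tested genes, 29.0% lower and 29.1% higher. DESeq2 called 4 members, against 3.57% of its tested genes, and the criteria of the study called 5, against 5.89%. With the replicate number as a block edgeR called 3 members, against 3.57%, and without a low-count filter 3, against 2.92%. An unadjusted p under 0.05 was found for 6 members, against 23.3% of tested genes.

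**Figure D1:**
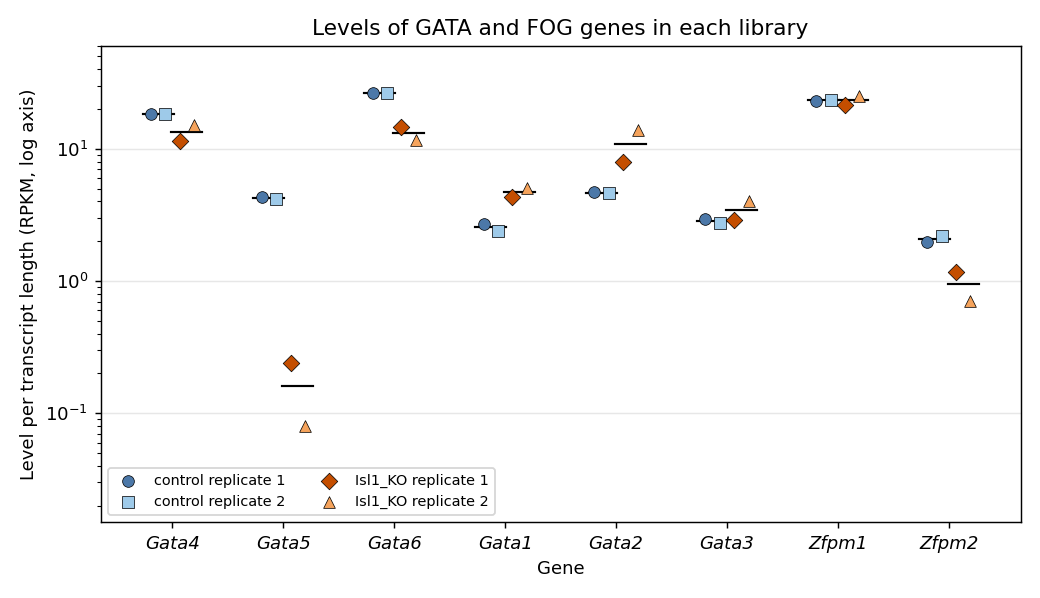
Level of each member in each of the 4 libraries, as RPKM (reads scaled to transcript length and library size) on a log axis, with bars at the group means. Gata5 is the member with the widest gap, with the control libraries at 4.29 and 4.18 RPKM and the Isl1_KO libraries at 0.24 and 0.08 RPKM, while the libraries of Zfpm1 lie together.

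Levels can be compared between genes only per transcript length, for which the deposited RPKM values served. The order was the same in both control libraries, with Gata6 highest at 26.4 ± 0.0495 RPKM (SD, n = 2), followed by Zfpm1 at 23.2 ± 0.410 and Gata4 at 18.4 ± 0.0849 RPKM. The other members were well below these, with Gata2 at 4.67 ± 0.0283, Gata5 at 4.24 ± 0.0778, Gata3 at 2.87 ± 0.141, Gata1 at 2.56 ± 0.205 and Zfpm2 at 2.07 ± 0.156 RPKM. The distance between Gata3 and Gata1 was close to the spread of their replicates. In Isl1_KO, Zfpm1 was highest at 23.3 ± 2.72 RPKM (SD, n = 2). It was followed by Gata4 at 13.3 ± 2.60, Gata6 at 13.2 ± 2.04 and Gata2 at 10.9 ± 4.17 RPKM, and these 3 overlapped, so that their order differed between the Isl1_KO libraries. Gata1 at 4.69 ± 0.537, Gata3 at 3.46 ± 0.778, Zfpm2 at 0.945 ± 0.332 and Gata5 at 0.160 ± 0.113 RPKM followed in both. Gata5 thus went from the fifth place to the last.

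The promoters of Gata5, the member with the widest gap, and of Gata1 and Gata2, whose levels were higher in both Isl1_KO libraries, are shown for comparison. The sequences are from RefSeq on GRCm38.p6, another build than the gene positions given with the levels, and run from 250 bases before to 50 bases after the transcription start. Of the 8 members 5 had a promoter in the table used. Capitals mark the GC box GGGCGG, searched on both strands. In the Gata1 promoter a pair of them overlaps.
Gata5 promoter, chr2:180334630-180334929, minus strand: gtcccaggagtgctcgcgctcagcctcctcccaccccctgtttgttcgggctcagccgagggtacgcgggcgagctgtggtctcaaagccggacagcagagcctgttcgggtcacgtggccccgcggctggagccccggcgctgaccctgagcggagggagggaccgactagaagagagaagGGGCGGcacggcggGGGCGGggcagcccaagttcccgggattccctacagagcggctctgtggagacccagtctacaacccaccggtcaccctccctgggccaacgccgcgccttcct
Gata1 promoter, chrX:7967861-7968160, minus strand: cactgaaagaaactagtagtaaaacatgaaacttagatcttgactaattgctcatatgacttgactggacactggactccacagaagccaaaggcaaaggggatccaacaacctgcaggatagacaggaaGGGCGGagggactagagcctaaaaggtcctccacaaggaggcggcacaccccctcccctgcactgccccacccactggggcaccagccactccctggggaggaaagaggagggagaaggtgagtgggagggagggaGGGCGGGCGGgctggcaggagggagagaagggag
Gata2 promoter (upstream start), chr6:88193641-88193940, plus strand: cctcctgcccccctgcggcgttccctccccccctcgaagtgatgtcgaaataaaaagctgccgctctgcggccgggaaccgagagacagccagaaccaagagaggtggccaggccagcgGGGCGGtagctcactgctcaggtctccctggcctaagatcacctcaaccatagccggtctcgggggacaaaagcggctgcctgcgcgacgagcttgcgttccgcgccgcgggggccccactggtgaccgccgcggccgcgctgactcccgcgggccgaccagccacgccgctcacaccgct

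The Gata5 and upstream Gata2 promoters were rich in G and C, at 69.7% and 69.3%, with 26 and 32 CpG pairs. The Gata1 promoter had 57.3% and 4 CpG pairs, where the median of 32851 promoters was 52.7% G and C. The GC box was found 2 times in the Gata5 promoter, 3 times in that of Gata1, with overlaps counted, and 1 time in the one shown for Gata2. The promoter of the other Gata2 start (chr6:88198414-88198713) held 3 GC boxes, 29 CpG pairs and 73.7% G and C. Of all promoters 35.7% hold at least 1 on either strand. The GATA word, GATA after A or T and before A or G, was searched on both strands. It was found in 0 of these 3 windows, in the Gata3 promoter once at 36 bases after the start, and in 29.8% of all promoters. The word CTAATG is of the kind bound by LIM-homeodomain proteins such as Isl1. It was in 0 of the 6 member promoters and in 7.36% of all promoters. Other words of this kind were not searched. The Gata1 promoter holds ctaatt, which also stands in the oligo that the study used as specific competitor for Isl1 binding. The absence of a word says only that its letters are not in this window.

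Gata5 encodes a factor of the endocardium and of the early heart and endoderm. Its counts were 221 and 223 for control against 18 and 5 for Isl1_KO, which is 25.1, 24.4, 1.38 and 0.434 CPM. Both Isl1_KO libraries were far below both control libraries, and the counts of 18 and 5 lay above the floor of 3 counts. The log2 fold change was -4.71 (SE 0.368, 95% interval -5.65 to -3.78, edgeR adjusted p 0.00902), larger in size than that of 99.7% of tested genes. Gata5 (NCBIM37, chromosome 2, 180059838 to 180069404, minus strand) has an exon that overlaps one of the protein-coding gene Gm14318 on the opposite strand, and the reads had been counted without regard to strand.

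Gata6, a factor of the outflow tract and of endoderm, was counted 1314 and 1359 times in control and 1079 and 738 times in Isl1_KO, whose libraries were deeper. Its levels were 149 and 149 CPM in control and 82.9 and 64.0 CPM in Isl1_KO. The groups did not overlap, and the log2 fold change was -1.02 (SE 0.130, 95% interval -1.35 to -0.69, edgeR adjusted p 0.0332). An exon of Gata6 (NCBIM37, chromosome 18, 11052508 to 11085633, plus strand) overlaps the long noncoding RNA 1010001N08Rik on the other strand.

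Both calls depended on having the 2 control libraries. Without control replicate 1 or without control replicate 2, 0 of the 8 members passed, with edgeR adjusted p of 0.103 and 0.0820 for Gata5 and of 0.338 and 0.298 for Gata6, while 6 members had an unadjusted p under 0.05 in each, against 7.45% and 7.63% of all tested genes. The log2 fold changes there were -4.70 and -4.74 for Gata5 and -1.02 in both for Gata6. In those fits the lone control library is assumed to vary like the Isl1_KO pair, and 0.207% and 0.221% of all tested genes passed. Without Isl1_KO replicate 1, 7 members passed among 49.2% of all tested genes, and without Isl1_KO replicate 2, 6 passed among 32.5%, with the spread taken from the control pair alone.

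Gata4, the best known cardiac GATA factor, had 110 and 111 CPM in control and 69.4 and 88.0 CPM in Isl1_KO. Both Isl1_KO libraries were below both control libraries. The log2 fold change of -0.49 (SE 0.123, 95% interval -0.81 to -0.18) did not pass over all genes, with an edgeR adjusted p of 0.109. Of all tested genes 82.9% had a smaller absolute log2 fold change.

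**Figure D2:**
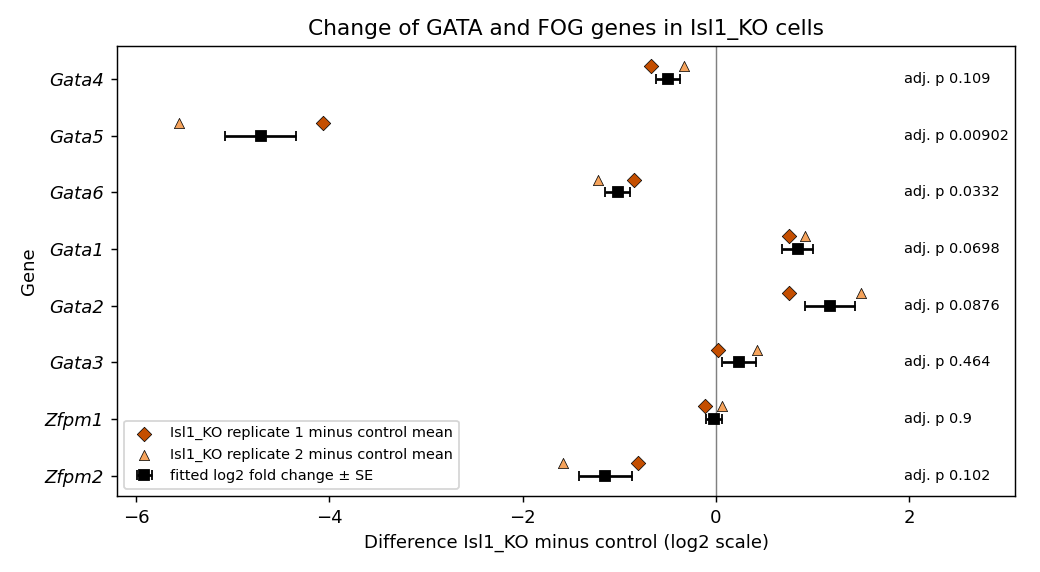
Fitted log2 fold change of each member (black squares, bars are ± 1 SE) with the difference of each Isl1_KO library from the control mean on the log2 CPM scale (coloured points), and the edgeR adjusted p at the right. Gata5 and Gata6 have an adjusted p under 0.05, and the Isl1_KO libraries of Gata5 lie farthest apart, at -4.07 and -5.56.

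The summed level of the cardiac factors was close in the 2 Isl1_KO libraries even though its parts were not. Gata4, Gata5 and Gata6 together came to 49.0 and 48.9 RPKM in control and to 26.4 and 27.0 RPKM in Isl1_KO, a ratio of 0.545. Within this sum the share of Gata4 was 37.4% and 37.6% in control and 43.6% and 56.1% in Isl1_KO. For Gata6 it was 53.9% and 53.8% in control and 55.5% and 43.6% in Isl1_KO, so the groups overlapped. The share of Gata5 was 8.76% and 8.54% in control and 0.910% and 0.296% in Isl1_KO. The ratio of Gata6 to Gata4 was 1.44 and 1.43 in control, 1.28 in Isl1_KO replicate 1 and 0.776 in Isl1_KO replicate 2. An exact two-sided permutation test with 2 libraries against 2 cannot give a p under 0.333, and it gave 0.333 for the shares of Gata4 and Gata5 and 1.0 for that of Gata6.

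Gata1, Gata2 and Gata3 made up the rest of the GATA transcripts. Gata1, the master regulator of red cells and megakaryocytes, was counted 80 and 74 times in control and 189 times in either Isl1_KO library, or 9.08, 8.10, 14.5 and 16.4 CPM. Both Isl1_KO libraries were above both controls. The log2 fold change was 0.85 (SE 0.158, 95% interval 0.45 to 1.25), with an edgeR adjusted p of 0.0698. Gata1 lies on the X chromosome (NCBIM37, chromosome X, 7536386 to 7555197), whose 430 tested genes had a median log2 fold change of -0.05.

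Gata2, a factor of blood stem cells and endothelium, was at 26.9 and 26.7 CPM in control. It was at 45.5 CPM in Isl1_KO replicate 1 and at 76.3 CPM in Isl1_KO replicate 2. Both Isl1_KO libraries were above both controls, and they lay far apart from each other. The log2 fold change was 1.18 (SE 0.258, 95% interval 0.53 to 1.84, edgeR adjusted p 0.0876), and it was 0.76 without Isl1_KO replicate 2 and 1.51 without Isl1_KO replicate 1. In DESeq2's Wald test Gata2 passed, with an adjusted p of 4.4e-04.

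Gata3 was at 16.9 and 15.8 CPM in control and at 16.6 and 21.9 CPM in Isl1_KO, so the groups overlapped. Its log2 fold change was 0.24 (SE 0.176, 95% interval -0.21 to 0.68, edgeR adjusted p 0.464). Exons of Gata3 overlap those of 9230102O04Rik and Gm13256, so its counts are less certain.

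**Figure D3:**
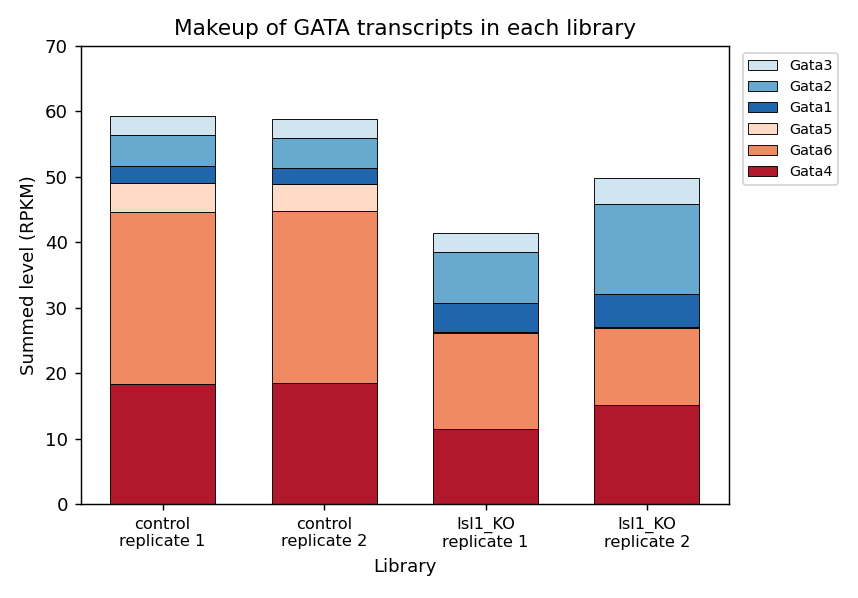
Stacked RPKM of the 6 GATA factors in each library, with the cardiac factors in red shades and Gata1, Gata2 and Gata3 in blue shades. The red part comes to 49.0 and 48.9 RPKM in control and 26.4 and 27.0 RPKM in Isl1_KO, and the blue part is largest in Isl1_KO replicate 2.

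Together Gata1, Gata2 and Gata3 came to 10.4 and 9.83 RPKM in control and to 15.1 and 22.9 RPKM in Isl1_KO. Their share of all GATA transcripts was 17.5% and 16.7% in control and 36.5% and 45.9% in Isl1_KO (exact permutation p 0.333, the smallest this design allows). All 6 factors together came to 59.4 and 58.8 RPKM in control and 41.5 and 49.9 RPKM in Isl1_KO. The ratio of Gata2 to Gata4 was 0.256 and 0.252 in control and 0.689 and 0.912 in Isl1_KO.

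Neither FOG cofactor passed the test in edgeR. Zfpm1 (FOG1) was at 137 and 141 CPM in control and at 128 and 146 CPM in Isl1_KO, and the control values lay within the range of the Isl1_KO libraries. Its log2 fold change was -0.02 (SE 0.0834, 95% interval -0.23 to 0.19, edgeR adjusted p 0.90), and it was 0.066 without Isl1_KO replicate 1. Zfpm2 (FOG2) was counted 152 and 175 times in control and 135 and 69 times in Isl1_KO, or 17.3, 19.1, 10.4 and 5.99 CPM. Both Isl1_KO libraries were below both controls. Its log2 fold change of -1.15 (SE 0.275, 95% interval -1.84 to -0.45) had an edgeR adjusted p of 0.102, and an adjusted p of 0.0248 in DESeq2.

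Set against their GATA partners, FOG1 had 8.50 and 9.76 RPKM for each RPKM of Gata1 in control and 4.97 and 4.98 in Isl1_KO. The ratio of Zfpm2 to Gata4 was 0.107 and 0.118 in control, 0.103 in Isl1_KO replicate 1 and 0.0469 in Isl1_KO replicate 2. Zfpm1 was 11.7 and 10.8 times Zfpm2 in control and 18.1 and 35.6 times Zfpm2 in Isl1_KO (exact permutation p 0.333, the smallest possible). The sum of both FOG genes overlapped between the groups, at 24.9 and 25.7 RPKM in control and 22.6 and 26.0 RPKM in Isl1_KO.

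The clones of a group were compared by the ratio of their CPM with an exact binomial 95% interval, which covers counting error only. In control the interval held 1 for all 8 members. In Isl1_KO it excluded 1 for 7 of the 8 members, all but Gata1. Such intervals were not computed for all tested genes, so whether the members stand out in this was not tested. Isl1_KO replicate 2 was at 1.68 times replicate 1 for Gata2 (1.51 to 1.87), at 0.314 times for Gata5 (0.0910 to 0.876), at 0.772 times for Gata6 (0.702 to 0.849) and at 0.577 times for Zfpm2 (0.425 to 0.777). For these 4 genes Isl1_KO replicate 2 was the library farther from control. Gata4 ran the other way, with replicate 2 at 1.27 times replicate 1 (1.16 to 1.39) and replicate 1 farther from control.

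Of 48 tested genes within 250 kb of a member 0 passed in edgeR, while 9 had an unadjusted p under 0.05 and 1 passed in DESeq2. Of all tested genes 23.3% had an unadjusted p under 0.05 in edgeR, and DESeq2 called 3.57% of its tested genes. Around Gata5, 0 of 7 tested genes passed, and their log2 fold changes ran from -1.85 for Ntsr1 (SE 0.564, edgeR adjusted p 0.149) to 0.21 for Rps21. Around Gata1 0 of 20 tested genes passed (-0.97 to 0.15), around Gata2 0 of 4 (-0.13 to 0.07) and around Gata4 0 of 5 (-0.67 to 0.23). Gata6 had 1 tested neighbour, Mib1, at -0.02.

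The cofactors and targets of the cardiac GATA factors were then read from the same fit, from lists that are counted here beside all tested genes, of which 247 (1.94%) were called lower and 64 (0.503%) higher, with a median log2 fold change of -0.0027. Of 19 genes whose proteins work with the cardiac GATA factors 18 were tested, and 5 fell and 0 rose, with a list median of -0.28. They were Mef2c (-4.23, SE 0.216), Tbx5 (-3.62, SE 0.212), Nkx2-5 (-2.16, SE 0.154), Hand2 (-1.71, SE 0.182) and Smarcd3, a SWI/SNF subunit (-1.15, SE 0.167), and the other 13 did not pass. Tbx5, a T-box factor that binds DNA together with Gata4, was at 12.9 and 13.5 CPM in control and at 1.00 and 1.13 CPM in Isl1_KO.

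Of 21 genes known as targets of cardiac GATA factors 18 were tested, and 10 of these fell and 0 rose, with a list median of -1.10. The contractile genes among them were Myh6 (-6.92, SE 0.113), Myl3 (-3.57, SE 0.205), Actc1 (-2.85, SE 0.406) and Tnnc1 (-1.14, SE 0.0914). Slc8a1, the sodium-calcium exchanger, fell by 4.74 on the log2 scale (SE 0.274), from 115 ± 2.76 to 4.37 ± 2.16 CPM (SD, n = 2 each). Wnt2, a signalling ligand downstream of Gata6, fell from 40.6 ± 0.915 to 13.8 ± 3.37 CPM (log2 fold change -1.56, SE 0.182), and Ccnd2, a cyclin, from 144 ± 1.31 to 69.2 ± 16.2 CPM (-1.06, SE 0.161). The edgeR adjusted p of these 7 genes ran from 3.79e-05 to 0.0466. Nkx2-5, Mef2c and Hand2 stand in both lists. Actc1, the cardiac alpha-actin, was at 332 and 324 CPM in control and at 64.6 and 26.0 CPM in the Isl1_KO libraries.

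**Figure D4:**
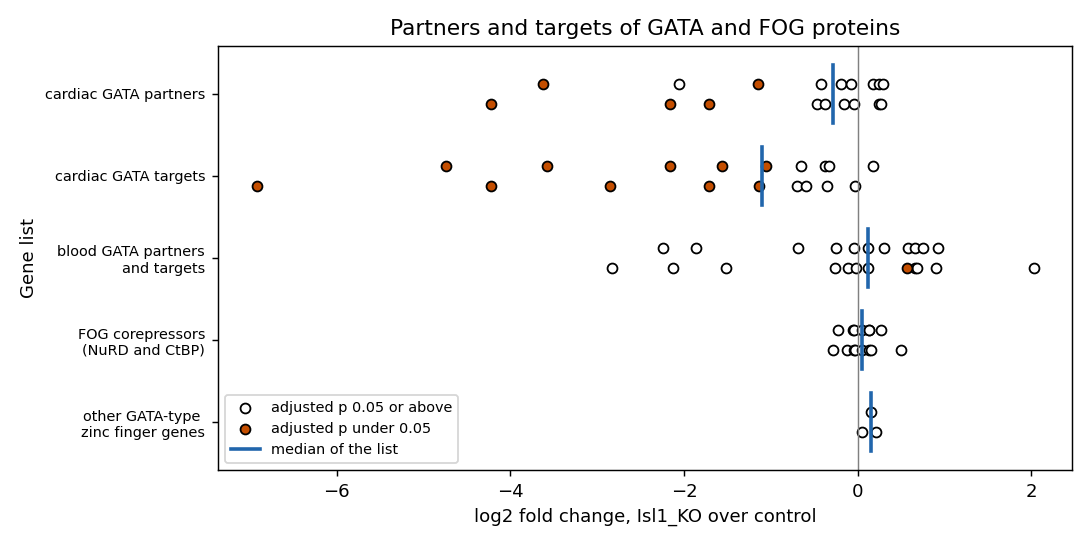
log2 fold change of each tested gene in 5 lists of genes that work with or below GATA and FOG proteins, with filled points for an edgeR adjusted p under 0.05 and a blue line at each list's median. The fallen genes lie in the 2 cardiac lists, with medians of -0.28 and -1.10, and 1 gene of the blood list rose.

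Of 25 blood genes that are partners or targets of Gata1 and Gata2, 23 were tested, 1 rose and 0 fell in edgeR, with a list median of 0.11. An unadjusted p under 0.05 was found for 11 of the 23, against 23.3% of all tested genes. DESeq2 called 5, against 3.57% of its tested genes. The gene that rose was Runx1, the regulator of blood stem cell emergence, at 70.4 and 71.9 CPM in control and 102 and 110 CPM in Isl1_KO (0.57 on the log2 scale, SE 0.0734, edgeR adjusted p 0.0335). The list held genes with values on both sides. Tal1, which forms a complex with Gata1 or Gata2, was at 38.0 and 39.9 CPM in control and at 58.3 and 90.1 CPM in Isl1_KO (edgeR adjusted p 0.0973). Myb, a factor of blood progenitors, was at 4.88 and 6.35 CPM in control and at 15.4 and 30.6 CPM in Isl1_KO (adjusted p 0.0726). The embryonic globin Hbb-y was at 19.6 and 18.2 CPM in control and at 4.0 and 1.21 CPM in Isl1_KO (adjusted p 0.0524). Tal1, Myb and Hbb-y were chosen for naming after their values were seen.

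Of 15 genes of the NuRD complex and the CtBP proteins, which FOG proteins recruit, 0 passed in edgeR or DESeq2. Their list median was 0.05. In edgeR 2 of the 15 had an unadjusted p under 0.05, against 23.3% of all tested genes. The 4 with the widest change were Mta3 (0.50, SE 0.123), Mbd2 (-0.29, SE 0.140), Hdac1 (0.27, SE 0.134) and Chd3 (-0.23, SE 0.0841), with edgeR adjusted p of 0.109 or above. Of 4 other genes with a GATA-type zinc finger, Gatad1 (0.21, SE 0.0685), Trps1 (0.15, SE 0.128) and Rere (0.05, SE 0.0655) were tested, 0 passed in edgeR or DESeq2 and 1 had an unadjusted p under 0.05.

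Markers of other cell types that the sort could hold were summed, since GATA factors are also expressed outside the heart. The 8 cardiomyocyte markers, all of which fell, summed to 1620 and 1703 CPM in control and 58.3 and 46.6 CPM in Isl1_KO. Of these, Myh6 also stands among the cardiac GATA targets. The 8 cardiac progenitor markers summed to 1702 and 1709 CPM in control and to 1565 and 1216 CPM in Isl1_KO. Of 7 tested ones 4 fell, where 1.94% of all tested genes were called lower. These 4, Nkx2-5, Tbx5, Mef2c and Hand2, are the same genes as in the list of cardiac GATA partners. Hand1 was the most abundant progenitor marker, at 839 and 848 CPM in control and 1122 and 871 CPM in Isl1_KO, and it did not pass (log2 fold change 0.24, SE 0.130). The blood markers summed to 438 and 442 CPM in control and 234 and 63.4 CPM in Isl1_KO, with Ptprc at 0 or 1 count in every library, beside the higher Gata1 and Gata2. Apart from Ptprc, these markers also stand in the list of blood partners and targets. The endothelial markers summed to 467 and 463 CPM in control and 425 and 445 CPM in Isl1_KO, with Kdr as the most abundant (217 and 214 CPM in control, 186 and 278 CPM in Isl1_KO). Their median log2 fold change was -0.62, with 7 of 10 negative. In both Isl1_KO libraries 5 were lower than in both controls. Among them were Tek at -1.18 (SE 0.333), and Emcn at 15 and 10 counts in control and 0 in both Isl1_KO libraries. Another 2 were higher in both, Pecam1 at 0.26 (SE 0.145) and Etv2 at 0.33 (SE 0.156). Of all tested genes 29.0% were lower and 29.1% higher in this way. The endoderm markers summed to 111 and 105 CPM in control and 101 and 73.2 CPM in Isl1_KO. The ectoderm and trophoblast markers summed to 111 and 115 CPM in control and 167 and 106 CPM in Isl1_KO, with Elf5 at 0 or 1 count. The pluripotency markers summed to 31.0 and 32.7 CPM in control and 26.0 and 49.5 CPM in Isl1_KO. Of 36 tested markers in the blood, endothelial, endoderm, ectoderm and trophoblast, and pluripotency lists 0 passed in edgeR. An unadjusted p under 0.05 was found for 12, against 23.3% of all tested genes. In DESeq2 4 passed, against 3.57% of its tested genes. The part of these cell types in the levels of the GATA genes was not tested.

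The genes most like each member were found by the distance between log2 CPM profiles over the 4 libraries, each centred on its own mean, which is a description over 4 points. Nearest to Gata5 were Myo18b (distance 0.461) and Ccdc141 (0.472), both muscle genes, with log2 fold changes of -4.44 and -4.93. Nearest to Gata6 were Chdh (0.0504) and Parp4 (0.0550), and nearest to Gata4 were Tceal5 (0.0332) and Mlf1 (0.0515). Gata1 lay nearest to Nefm (0.0350) and Stat5a (0.0513), and Gata2 to Pwwp2b (0.0906) and Reln (0.103). Gata3 had Polk (0.0205) and Tmem243 (0.0255) as its neighbours in profile, Zfpm1 had Trip12 (0.00568) and Acot13 (0.0154), and Zfpm2 had Spon2 (0.0135) and Arc (0.0513). The distances of Gata5 were the widest.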

How the data were processed

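The authors mapped the reads to mm9 with STAR and counted exonic reads of RefSeq transcripts with HOMER on both strands together. The deposited table gives raw counts for each transcript, and the deposited RPKM values are the authors' edgeR values per transcript length. Columns of the authors' own DESeq2 comparison (mean signal, log2 fold changes, Wald score, p-values) were deposited too and were not used. Versions of these tools are not given in the sources used here. The counts were tested in R 4.3.3 with edgeR 4.0.16, by its quasi-likelihood F test (TMM, filterByExpr, two-sided, Benjamini-Hochberg over 12715 genes, threshold 0.05). The procedure was tested on simulated data with the same spread for all genes in both groups. A spread that differs between the groups was not simulated. Of tied entries the first in the table was kept. CPM values use effective library sizes, and a floor of 3 counts is 0.231 to 0.341 CPM. Gene positions are from GENCODE vM1 on NCBIM37, the assembly behind mm9. Alternatives were DESeq2 1.42.0, the study's criteria (p under 0.05 and absolute log2 fold change over 0.58), other filters and scaling, all entries, a replicate block and leaving out each library. Members, lists and tests were chosen with earlier results of these data known. The rule for names was every member, Isl1, the called genes of each list (the 4 widest changes where none passed), and the 2 genes nearest in profile to each member. Tal1, Myb, Hbb-y, Hand1 and the neighbours and markers named singly were outside this rule. Replicates are clones, and nothing says that cultures were repeated. The edgeR p-values thus set the genotype difference against the spread between clones within the groups, for these 4 libraries only.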

Additional observations from a re-analysis of the deposited data

How the results depend on the processing

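Of the 8 members 2 passed with RLE factors and with all transcript entries. Without a low-count filter 3 passed, against 2.92% of tested genes, and Gata1 was then among them (log2 fold change 0.86, edgeR adjusted p 0.0483). DESeq2 called 4 members (Gata2, Gata5, Gata6 and Zfpm2), the study's criteria called 5 (Gata1 as well), and a minimum of 10 counts per library left 1, because Gata5 was then not tested. The share of all tested genes called is not given for RLE factors, all entries or the minimum of 10 counts. Of 81 listed pathway genes 74 were tested in the main fit and 13 were called, against 2.45% of all tested genes. DESeq2 called 20 of the listed genes and the study's criteria 22. The log2 fold changes were then 1.19 for Gata2 and -1.14 for Zfpm2 in DESeq2 and 0.85 for Gata1 by the study's criteria. These criteria called 5.89% of all genes tested, and DESeq2 called 3.57%.

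Leaving out 1 library gave 0 to 7 called members and 4 to 59 called listed genes. The lowest counts came without a control library. The highest came without an Isl1_KO library, when the spread came from the control pair alone and 49.2% (without replicate 1) or 32.5% (without replicate 2) of all tested genes passed. The range of log2 fold changes was 0.76 to 0.93 for Gata1, 0.76 to 1.51 for Gata2, 0.025 to 0.43 for Gata3, -0.67 to -0.33 for Gata4, -5.79 to -4.15 for Gata5, -1.22 to -0.84 for Gata6, -0.11 to 0.07 for Zfpm1 and -1.60 to -0.81 for Zfpm2. Zfpm1 turned positive, at 0.066, without Isl1_KO replicate 1, and the cause was not tested.

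Same-numbered libraries are known to share a number, and whether they share more is not stated. The correlation of their deviations was 0.0144 over 12715 genes, which cannot decide it. With the replicate number as a block, 3 members were called, Gata2 (log2 fold change 1.14, edgeR adjusted p 0.0371) beside Gata5 and Gata6, with 17 listed genes and 454 of all genes (3.57%). Of the log2 fold changes of members under all alternatives, 87 in all, 66 kept their direction and side of the threshold, 16 passed it only under the alternative, 4 no longer passed and 1 changed sign. Most of the 16 came from fits without an Isl1_KO library, where the spread came from the control pair alone. All 4 that no longer passed came from fits without a control library.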
